A study of Mus musculus with 2 samples.

Results

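The genes of glycolysis, glucose uptake and lactate handling were followed in scRNA-seq data of CD31+ cells isolated from the mesentery of Flcn iΔEC mice and their controls. The set was fixed by gene symbol, and its 35 genes were all found among the 28692 genes of the deposited feature table. It holds the glucose transporters Slc2a1 and Slc2a3, the enzymes from hexokinase to pyruvate kinase, the regulators Pfkfb1, Pfkfb2, Pfkfb3 and Pfkfb4, lactate dehydrogenases and lactate transporters, the pyruvate dehydrogenase switch, and the pentose phosphate branch. The study deleted Flcn in endothelial cells after birth and asked which cell states followed in the mesentery. Both groups were C57BL/6 mice, given 40 µg of 4-hydroxytamoxifen under the skin on postnatal days P2 and P3.5 and again on P5 and on P6.5, and examined at P8. The Flcn iΔEC mice were Cdh5-BAC-CreERT2 Flcn flox/flox, so the deletion rests on a Cre that the endothelial Cdh5 promoter drives. The sources used here give the other group only as control, without its Cre or Flcn alleles. Each group was 1 library made from the pooled cells of 3 mice, so no test between the groups was possible, and every 95% interval below covers counting error only, not the spread between mice.

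Glycolysis splits glucose into pyruvate in the cytoplasm, and lactate dehydrogenase can turn that pyruvate into lactate, which monocarboxylate transporters export. Endothelial cells are known for making much of their ATP this way, and PFKFB3, whose product fructose-2,6-bisphosphate activates phosphofructokinase, is a well-known driver of glycolysis during vessel sprouting. Folliculin, the product of Flcn, acts at the lysosome and keeps the transcription factors TFEB and TFE3 in the cytoplasm. TFEB, TFE3 and MYC bind E-boxes such as CACGTG, and the hypoxia-inducible factors bind sites with ACGTG or GCGTG at their core.

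The promoters of 5 of the members described below are shown with these letters in capitals. Each is a window of 300 bases, from 250 before to 50 after an annotated start, taken from RefSeq on GRCm38.p6 and written 5′ to 3′ on the gene's own strand. The capitals mark the E-box CACGTG and the cores ACGTG or, as the other form, GCGTG on either strand. The reverse complement of ACGTG reads CACGT, that of GCGTG reads CACGC, and every CACGTG is also counted under ACGTG. The sequences are the windows of Ldha at chr7:46845554-46845853 on the plus strand, Pfkfb3 at chr2:11502041-11502340, Gapdh at chr6:125165724-125166023, Pfkp at chr13:6648722-6649021 and Pfkl at chr10:78009758-78010057, these 4 on the minus strand.
Ldha: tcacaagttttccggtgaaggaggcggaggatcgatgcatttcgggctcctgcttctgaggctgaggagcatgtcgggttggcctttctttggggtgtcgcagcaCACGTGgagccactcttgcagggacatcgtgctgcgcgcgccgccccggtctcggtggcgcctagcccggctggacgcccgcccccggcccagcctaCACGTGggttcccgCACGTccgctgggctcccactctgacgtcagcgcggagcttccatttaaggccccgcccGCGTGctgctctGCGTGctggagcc
Pfkfb3: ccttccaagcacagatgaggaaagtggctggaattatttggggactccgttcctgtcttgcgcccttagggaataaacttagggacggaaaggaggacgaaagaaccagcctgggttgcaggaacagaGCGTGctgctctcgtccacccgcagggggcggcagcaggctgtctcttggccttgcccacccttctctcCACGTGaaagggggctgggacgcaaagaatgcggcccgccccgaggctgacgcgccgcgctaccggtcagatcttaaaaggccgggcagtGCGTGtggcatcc
Gapdh: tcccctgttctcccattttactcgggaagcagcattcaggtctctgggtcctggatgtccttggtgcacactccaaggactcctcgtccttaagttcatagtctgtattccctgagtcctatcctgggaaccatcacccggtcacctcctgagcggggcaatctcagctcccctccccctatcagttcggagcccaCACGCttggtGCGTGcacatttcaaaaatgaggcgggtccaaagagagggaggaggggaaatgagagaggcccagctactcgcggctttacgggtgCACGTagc
Pfkp: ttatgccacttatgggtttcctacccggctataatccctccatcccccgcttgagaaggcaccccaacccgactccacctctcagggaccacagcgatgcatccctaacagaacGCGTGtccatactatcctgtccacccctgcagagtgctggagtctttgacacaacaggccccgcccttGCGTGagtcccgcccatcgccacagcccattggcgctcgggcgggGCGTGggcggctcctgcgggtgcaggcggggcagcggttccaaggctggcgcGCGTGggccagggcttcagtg
Pfkl: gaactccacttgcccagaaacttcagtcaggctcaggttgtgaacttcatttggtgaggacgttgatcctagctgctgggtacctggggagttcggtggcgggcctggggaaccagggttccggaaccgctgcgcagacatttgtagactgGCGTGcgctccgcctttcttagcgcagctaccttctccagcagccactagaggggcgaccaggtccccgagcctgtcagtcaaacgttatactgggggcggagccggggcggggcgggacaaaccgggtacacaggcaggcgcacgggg

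The Ldha window holds CACGTG 2 times, and this Pfkfb3 window, which belongs to an inner start of the gene, holds it 1 time. The other window of each of these 2 genes holds it 0 times. The Pfkp window has GCGTG 4 times and the Pfkl window 1 time, and neither has CACGTG. Over the 54 windows of the 34 members with a promoter entry (all but Slc2a3), CACGTG was in 6 (11.1%), against 7.15% of all 32851 windows of this length. ACGTG was in 23 member windows (42.6%) against 19.6% of all, and GCGTG in 31 (57.4%) against 32.4%. These counts describe letters only, and windows of a gene with several starts can overlap.

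The libraries held 6814 control and 4459 Flcn iΔEC cells, with 64639756 and 60805779 UMIs (unique molecular identifiers, each a tagged RNA molecule read from its 3′ end). Cells with at least 2 UMIs of Cdh5, the VE-cadherin gene, were taken as endothelial, 566 in the control against 892 in the Flcn iΔEC library, with medians of 16127 and 24415 UMIs. All other cells numbered 6248 and 3567, so most cells of the CD31+ isolate did not pass as endothelial. Cells were clustered without the members, and clusters were named from marker lists as VEC-like (69 control and 123 Flcn iΔEC cells, venous), LEC-like (78 and 298, lymphatic), AEC-like (184 and 157, arterial), capillary-like (29 and 17), HEV-like (57 and 77, high endothelial venule), lymph node sinus LEC-like (19 and 43) and proliferating endothelial (55 and 60). Another 75 control and 117 Flcn iΔEC endothelial cells stayed unnamed. The libraries shared 6 cell barcodes. They also differed in sex-linked genes (Xist 9 and 63462 UMIs, 4 Y-linked genes 15535 and 17 UMIs), and 5 members, Pgk1, Pdha1, G6pdx, Pdk3 and Pfkfb1, are X-linked. Hspa1a, a heat shock gene, stood at 54.2 CPM in control against 357 CPM in Flcn iΔEC VEC-like cells and at 29.1 and 1211 CPM in T cell-like cells, and the part of sex and of stress genes in the values below was not tested. Flcn itself was at 10.2 CPM (143 UMIs) in control against 9.74 CPM (265 UMIs) in Flcn iΔEC endothelial cells. The order differed by class, with 6.95 CPM (10 UMIs) in control against 12.2 CPM (39 UMIs) in Flcn iΔEC VEC-like cells and 16.2 CPM (25 UMIs) against 9.97 CPM (79 UMIs) in LEC-like cells. Since the deleted part of the gene need not hold its 3′ end, these counts do not check the labels. Prox1, the master gene of lymphatic fate, had 728 CPM in control against 447 CPM in Flcn iΔEC LEC-like cells, but was also higher in Flcn iΔEC than in control VEC-like cells, at 152 against 49.3 CPM. Proliferating endothelial cells had Prox1 at 84.1 CPM in control against 338 CPM in Flcn iΔEC. Vwf, from the venous marker list, had 1213 and 375 CPM there. The vessel mixture of this class thus differed between the libraries, and its part in the values below was not tested. VEC-like cells differed in such markers too, with Vwf at 2791 CPM in control against 1483 CPM in Flcn iΔEC. Nr2f2, also from the venous list, had 509 and 318 CPM there. The part of these marker differences in the VEC-like values below was not tested.

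Levels are given as CPM, the UMIs of a gene for every 1000000 UMIs, both summed over the cells of a class. The 17 enzymes of the list from hexokinase to lactate dehydrogenase summed to 1985 CPM in control against 2358 CPM in Flcn iΔEC VEC-like cells, and to 2324 and 2960.1 CPM in LEC-like cells. In AEC-like cells the order was the other way round, with 2169 CPM in the control against 1938 CPM in the Flcn iΔEC library. This class was a different mixture in each library, since a cluster led by Cxcl12 and Rbp7 gave 131 of its 184 control but 47 of its 157 Flcn iΔEC cells, and a cluster led by Gkn3 and Gja5 gave the others. The enzymes summed to 2404 and 2207 CPM in the Cxcl12 cluster, but to 1833 and 1849 CPM in the Gja5 cluster, so the reversed order did not hold in the latter. Over all 17 enzymes, the highest control sum of the named classes was that of proliferating non-endothelial cells (3518 CPM, 2959 in Flcn iΔEC). Erythroid-like cells, whose UMIs were mostly hemoglobin, had 99.95 and 63.6 CPM. Gapdh, which oxidizes glyceraldehyde-3-phosphate, gave more UMIs than any other member in every class but the erythroid-like cells. Pgk1, the enzyme of the next step, had only 3.62 to 17.3 CPM outside the erythroid-like cells. How well its 3′ end was captured was not tested, so these are UMI levels and not molecules in the cell.

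**Figure D1:**
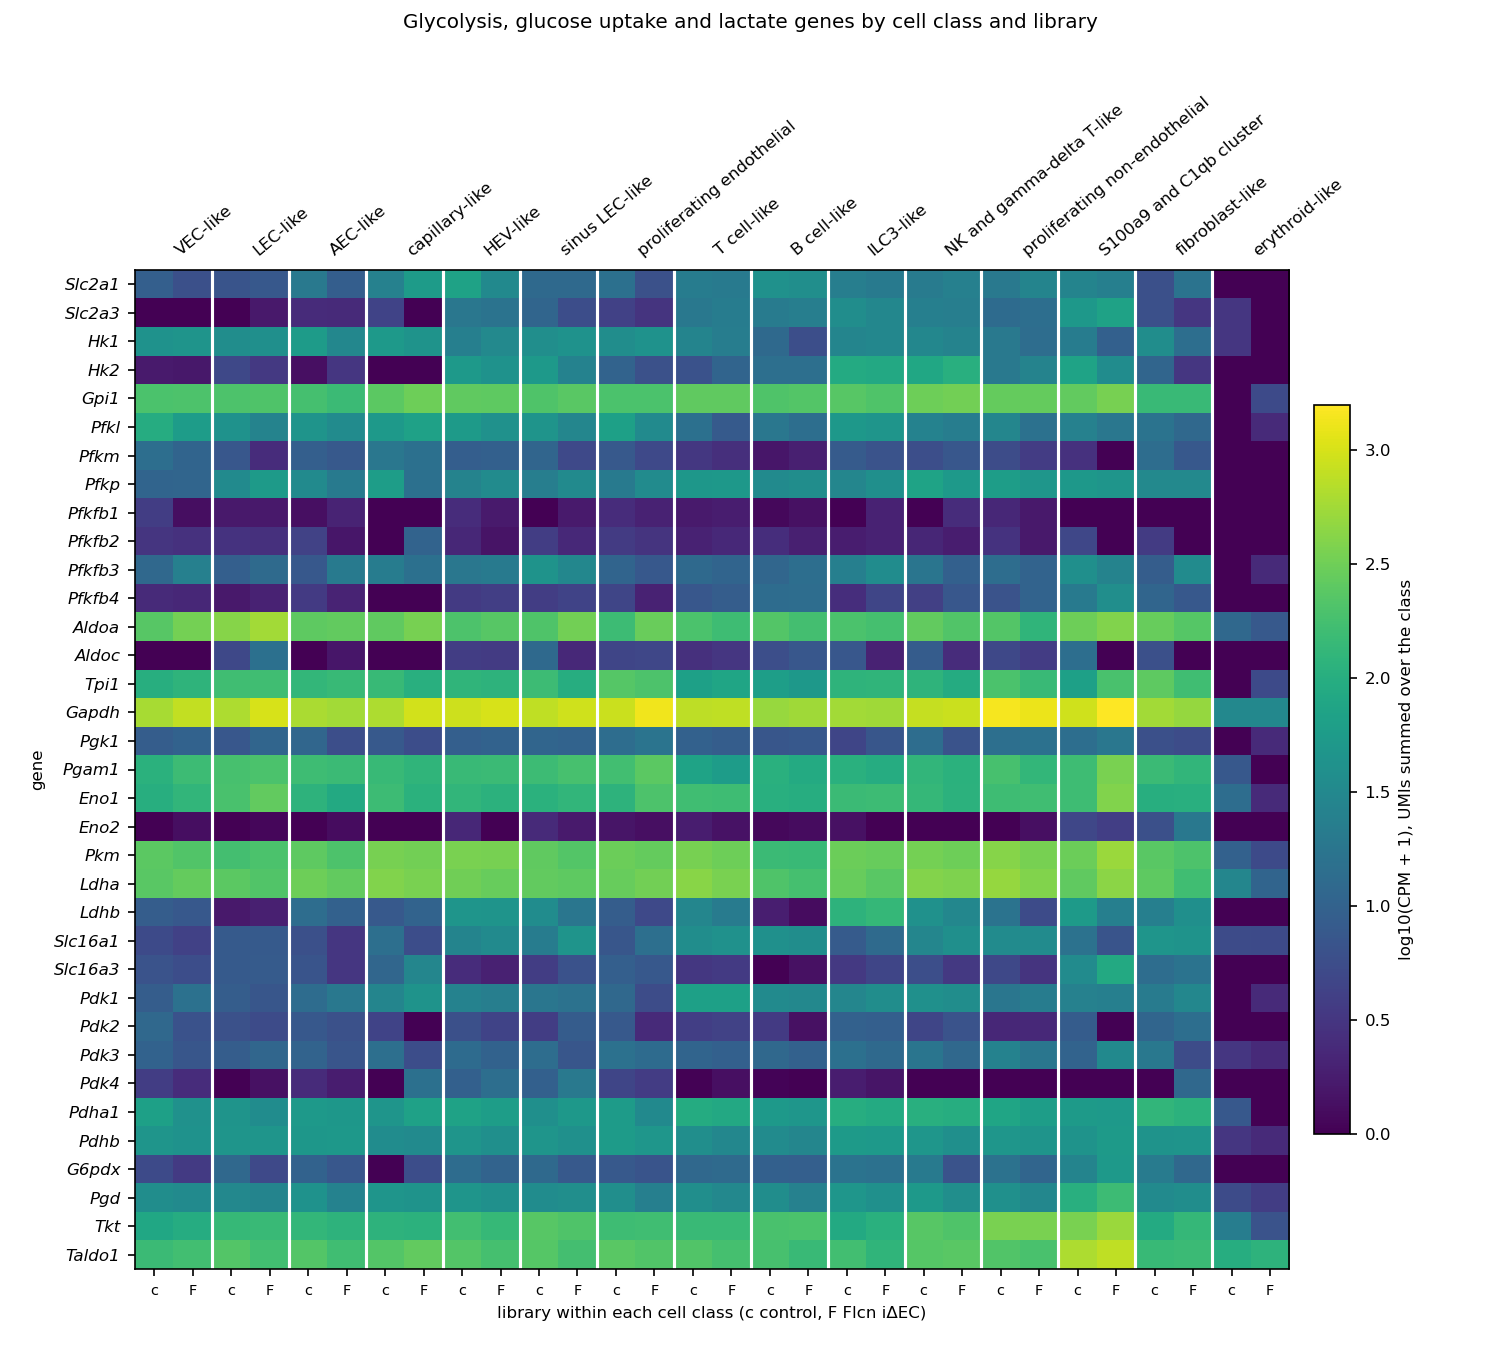
Level of each of the 35 genes (rows) in 15 cell classes, with the S100a9 and C1qb cluster unnamed, and with the control (c) and the Flcn iΔEC library (F) side by side, as the log10 of CPM plus 1. Gapdh, Ldha, Pkm, Gpi1 and Aldoa are bright in every class but the erythroid-like cells, whereas Hk2 and Slc2a3 are brighter in HEV-like, sinus LEC-like and most blood cell classes than in VEC-like and LEC-like cells.

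A gene was compared between the libraries where a class held at least 50 of its UMIs in all, and was called where its log2 ratio, with 1 count added to each library, passed 1.5-fold. In VEC-like cells 18 of the 35 members could be compared, with 2 called higher in Flcn iΔEC (Pfkfb3 and Pdk1) and 2 lower (Pfkl and Pdha1), where 8.68% of all genes compared were called higher and 14.5% lower. In LEC-like cells 24 could be compared, with 3 higher (Pfkp, Aldoc and Gapdh) and 1 lower (Pfkl), against 7.8% and 21.8% of all genes (29.6% either way). In AEC-like cells 20 could be compared, with 1 higher (Pfkfb3) and 4 lower (Slc2a1, Hk1, Pfkp and Pgd), against 6.42% and 14.4%. The median log2 ratio of the members compared was 0.18 in VEC-like, 0.06 in LEC-like and −0.20 in AEC-like cells, where that of all genes was −0.09, −0.21 and −0.14. In LEC-like cells the split depended on the scaling, since TMM factors gave 7 higher and 0 lower and median ratio scaling 6 and 0, and in VEC-like cells these gave 4 and 1, and 4 and 2. Cell cycle genes also differed in VEC-like cells, where 5 of the 7 that could be compared were called higher in Flcn iΔEC and 0 lower (Stmn1 had 163 and 365 CPM), against 2 higher and 2 lower of 12 in LEC-like cells. Their part in the members' values and in the enzyme sums was not tested. Of capillary-like cells, with 10 members compared, 1 was called higher (Gapdh, where 12.3% of all genes were) and 0 lower (12.6%), and the Gapdh ratio fell below 1 without integration and at a finer clustering. Pfkfb1, Pfkfb2 and Eno2 reached 50 UMIs in no class.

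**Figure D2:**
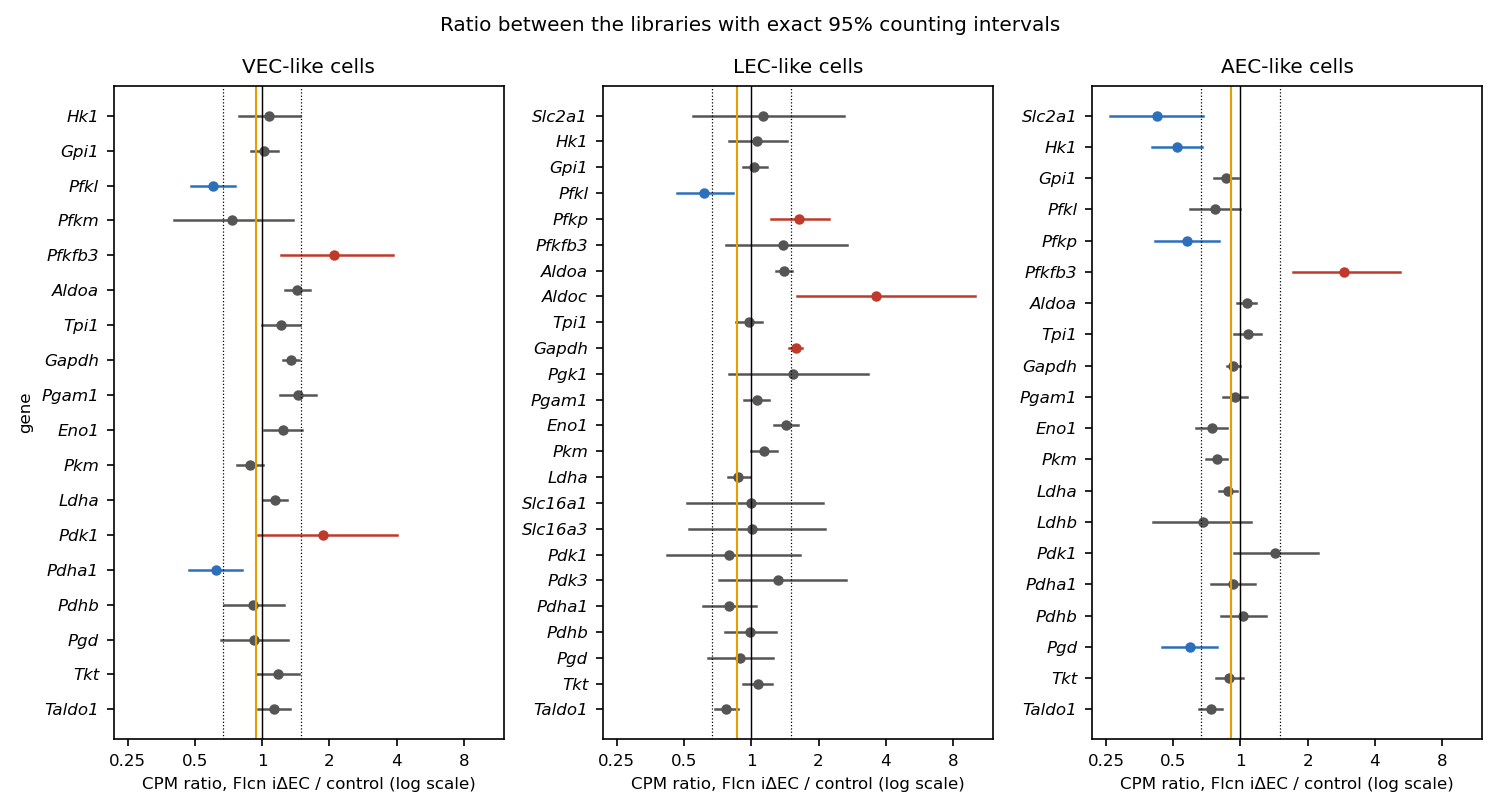
CPM ratio of Flcn iΔEC over control for every member with at least 50 UMIs in VEC-like, LEC-like and AEC-like cells, on a log axis, with exact 95% counting intervals. Red points were called higher and blue points lower, dotted lines mark 1.5-fold, and the orange line is the median ratio of all genes in the class. Pfkfb3 stands at 2.11 in VEC-like and 2.92 in AEC-like cells, and Pfkl at 0.601 in VEC-like and 0.616 in LEC-like cells.

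Glucose enters through facilitative transporters, of which Slc2a1 encodes GLUT1 and Slc2a3 encodes GLUT3. Slc2a1 had 8.34 CPM in control against 4.996 CPM in Flcn iΔEC VEC-like cells and 5.82 and 6.57 CPM in LEC-like cells. In AEC-like cells it had 18.8 CPM in the control against 7.96 CPM in the Flcn iΔEC library, a ratio of 0.424 (0.260 to 0.681). Within the Cxcl12 cluster of that class the ratio was 0.438 (0.196 to 0.890), and the Gja5 cluster was under 50 UMIs. Its highest control level was in HEV-like cells, with 68.8 CPM against 32.2 CPM in the Flcn iΔEC library, a ratio of 0.467 (0.374 to 0.582), where 8.02% of all genes were called higher and 6.07% lower. Slc2a1 was thus lower in the Flcn iΔEC library in these 2 classes, with no overlap of the intervals. Slc2a3 was not detected in VEC-like cells of either library, which allows up to 2.08 CPM (control) and 0.937 CPM (Flcn iΔEC). It was found in T cell-like (18.0 and 21.1 CPM), B cell-like (20.1 and 22.4 CPM) and an unnamed cluster led by S100a9, S100a8, Lyz2 and C1qb (49.1 and 69.03 CPM).

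Hexokinase traps glucose as glucose-6-phosphate, and Hk1 and Hk2 encode its common and its inducible form. Hk1 had 41.0 CPM in control against 44.0 CPM in Flcn iΔEC VEC-like cells and 35.6 and 37.7 CPM in LEC-like cells, with overlapping intervals. In AEC-like cells it had 55.9 CPM in the control against 29.1 CPM in the Flcn iΔEC library, a ratio of 0.520 (0.402 to 0.670). Hk1 was lower in the Flcn iΔEC library within both clusters of the class, with ratios of 0.573 (0.363 to 0.878) and 0.501 (0.355 to 0.709). Hk2 made up 1.67% and 1.40% of the Hk1 and Hk2 UMIs in VEC-like cells, but 76.4% and 74.5% in ILC3-like cells, a class of innate lymphoid cells. In T cell-like cells Hk2 had 5.47 CPM in the control against 9.66 CPM in the Flcn iΔEC library, a ratio of 1.77 (1.32 to 2.36), the only member called higher in that class, where 4.24% of all genes were called higher, 4.9% lower and 9.14% either way. In B cell-like cells Hk1 had 11.2 and 4.80 CPM, a ratio of 0.428 (0.290 to 0.618), the only call in that class, where 3.72% of all genes were called higher, 5.83% lower and 9.55% either way.

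Phosphofructokinase commits sugar phosphate to glycolysis, and its subunits are encoded by Pfkl (liver type), Pfkm (muscle type) and Pfkp (platelet type). Pfkl had 94.5 CPM in control against 56.8 CPM in Flcn iΔEC VEC-like cells, a ratio of 0.601 (0.479 to 0.756). In LEC-like cells it had 42.0 and 25.9 CPM, a ratio of 0.616 (0.464 to 0.827), which was no longer past 1.5-fold with TMM factors or median ratio scaling. Pfkl was lower in the Flcn iΔEC library in both classes, and the intervals of the levels did not overlap. It was also called lower in proliferating endothelial cells (63.9 and 32.9 CPM), where 8.39% of all genes were called higher and 14.8% lower. T cell-like cells had 14.0 CPM (282 UMIs) in the control against 7.11 CPM (64 UMIs) in the Flcn iΔEC library, a ratio of 0.507 (0.380 to 0.667), so Pfkl was lower outside the endothelial classes too. Over all non-endothelial cells together Pfkl had 20.6 and 20.2 CPM.

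Pfkp was low in VEC-like cells of both libraries, at 9.73 and 9.99 CPM. LEC-like cells had 33.0 CPM of Pfkp in the control against 53.9 CPM in the Flcn iΔEC library, a ratio of 1.63 (1.22 to 2.23). Pfkp was thus higher in LEC-like than in VEC-like cells within each library, by 3.39-fold (1.85 to 6.63) in the control and 5.395-fold (3.76 to 7.99) in Flcn iΔEC, and Pfkl was lower, at 0.445 and 0.455 of the VEC-like level. In this comparison of classes 16 members had 50 UMIs in the control, with 6 called higher in LEC-like cells and 1 lower, where 15.4% of all genes were called higher and 15.1% lower. In the Flcn iΔEC library 25 had them, with 7 higher and 3 lower, where the shares of all genes were 13.8% and 16.8%. Aldoa, Eno1 and Tkt were the other members called higher in LEC-like cells in both libraries.

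The LEC-like class joined 3 clusters that took different shares in each library. A cluster led by Lcn2 and Fgl2 and matched to capillary lymphatic markers had 43 control and 157 Flcn iΔEC cells, a cluster led by Aqp8 and matched to collecting lymphatic markers 21 and 120, and a cluster with Lyve1 and Reln 14 and 21. Pfkp had 26.4 and 36.0 CPM in the Lcn2 cluster, a ratio of 1.36 (0.876 to 2.21), and 54.2 and 85.5 CPM in the Aqp8 cluster, a ratio of 1.58 (1.04 to 2.51). The ratio was above 1 within both, but only that of the Aqp8 cluster passed 1.5-fold. In AEC-like cells Pfkp had 32.8 CPM in the control against 18.9 CPM in the Flcn iΔEC library, a ratio of 0.577 (0.416 to 0.797). Within its 2 clusters the ratios were 0.835 (0.535 to 1.28) and 0.750 (0.423 to 1.37), and neither passed 1.5-fold. In both libraries the Gja5 cluster had less Pfkp than the Cxcl12 cluster, at 17.6 against 43.5 CPM in the control and 13.2 against 36.3 CPM in Flcn iΔEC.

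As a share of the UMIs of the 3 subunits, which does not depend on how a library was scaled, Pfkp was 40.5% (31.8 to 49.6) in control against 66.3% (62.5 to 70.0) in Flcn iΔEC LEC-like cells. Proliferating endothelial cells had 21.8% (15.9 to 28.7) in the control against 47.8% (40.9 to 54.9) in the Flcn iΔEC library, and T cell-like cells 74.7% (72.3 to 77.1) and 84.9% (81.5 to 87.9). The share was higher in the Flcn iΔEC library in these 3 classes without overlap of the intervals. For the proliferating class, the part of its differing vessel mixture in this share was not tested. In VEC-like cells the share was 8.28% (4.603 to 13.5) and 13.1% (9.11 to 17.9), with overlap. AEC-like cells were on the other side, with 38.6% (32.3 to 45.1) and 31.8% (25.7 to 38.4), also with overlap. How well the 3′ end of each subunit was captured was not tested, so shares between genes describe UMIs and not molecules in the cell.

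**Figure D3:**
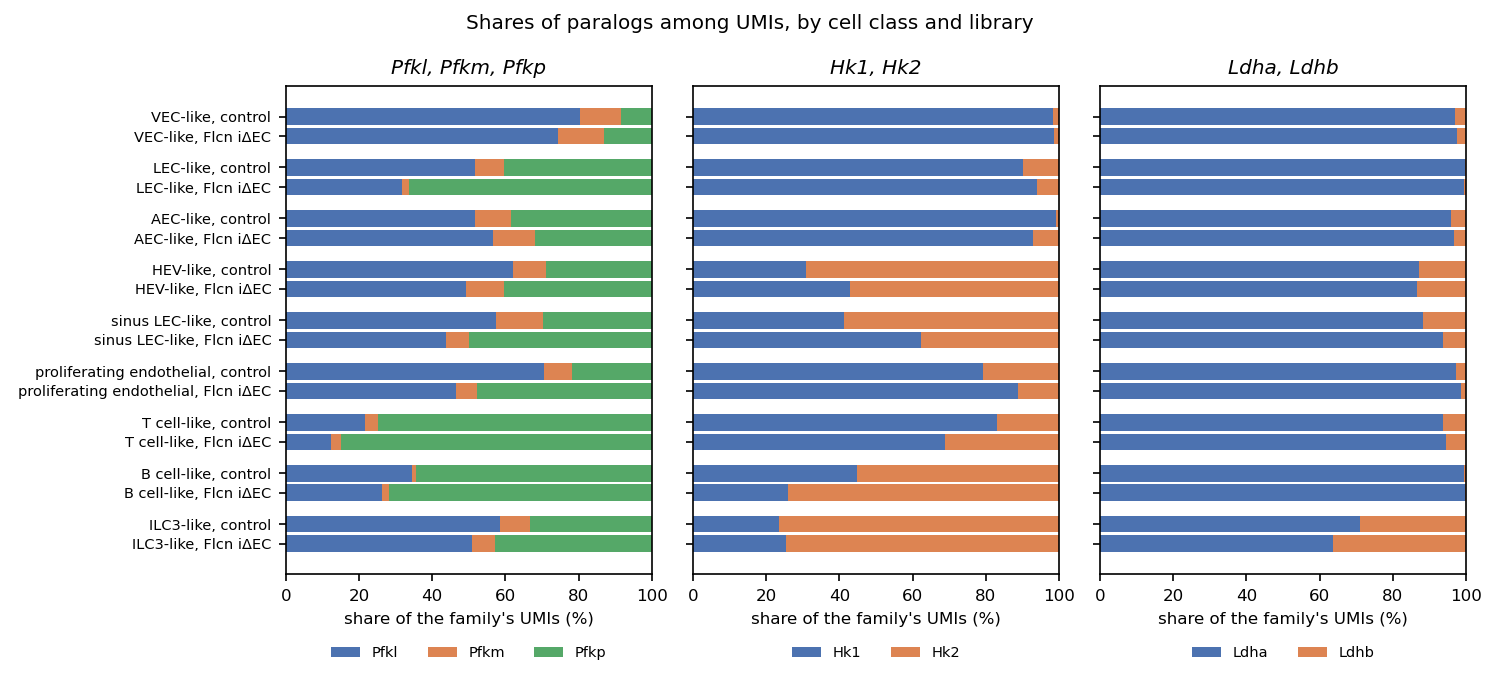
Share of each paralog among the UMIs of its family (horizontal axis, percent) in 9 cell classes of both libraries, for the phosphofructokinase subunits, the hexokinases and the lactate dehydrogenases. Pfkp takes 40.5% of control and 66.3% of Flcn iΔEC LEC-like UMIs, and Hk2 takes under 2% in VEC-like but 76.4% and 74.5% in ILC3-like cells.

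Among the bifunctional enzymes that set fructose-2,6-bisphosphate, Pfkfb3 gave most UMIs in VEC-like and AEC-like cells. In VEC-like cells it had 11.1 CPM (16 UMIs) in the control against 23.4 CPM (75 UMIs) in the Flcn iΔEC library, a ratio of 2.11 (1.22 to 3.87). In AEC-like cells it had 6.49 CPM (18 UMIs) and 18.9 CPM (69 UMIs), a ratio of 2.92 (1.72 to 5.21). Both intervals lay above 1. Within the AEC-like class only the Gja5 cluster could be compared, with 5.27 and 22.3 CPM and a ratio of 4.23 (1.84 to 11.99). The Cxcl12 cluster, with 7.35 and 8.81 CPM, was under 50 UMIs, so the difference cannot be placed in either cluster alone. LEC-like cells had 8.41 and 11.6 CPM, a ratio of 1.38 (0.769 to 2.69), which did not pass 1.5-fold. The share of Pfkfb3 among the UMIs of the 4 genes was 64.0% (42.5 to 82.0) in control against 87.2% (78.3 to 93.4) in Flcn iΔEC VEC-like cells, and 51.4% (34.0 to 68.6) and 87.3% (78.0 to 93.8) in AEC-like cells. ILC3-like cells had 22.9 and 34.9 CPM, the only member called there, where 4.28% of all genes were called higher, 5.1% lower and 9.38% either way. Pfkfb4 made up 50.8% and 47.4% of the family in B cell-like cells but 8.00% and 4.65% in VEC-like cells.

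Aldolase splits fructose-1,6-bisphosphate, and Aldoa encodes its widespread form. Aldoa had 233 CPM in control against 335 CPM in Flcn iΔEC VEC-like cells, a ratio of 1.44 (1.27 to 1.63), and 408 and 573 CPM in LEC-like cells, a ratio of 1.40 (1.29 to 1.53). In proliferating endothelial cells it had 154 and 289 CPM, a ratio of 1.88 (1.64 to 2.15), and of these 3 classes it passed 1.5-fold in the proliferating cells alone. In AEC-like cells the ratio was 1.07 (0.967 to 1.18). Aldoc, the form best known from brain, had no UMI in VEC-like cells of either library. In LEC-like cells it had 3.88 CPM (6 UMIs) in the control against 14.0 CPM (111 UMIs) in the Flcn iΔEC library, a ratio of 3.61 (1.61 to 10.1). Of the Flcn iΔEC clusters, the Aqp8 cluster had 24.4 CPM of Aldoc and the Lcn2 cluster 7.89 CPM, a ratio of 3.09 (2.03 to 4.78). Within the Aqp8 cluster the log2 ratio of Aldoc between the libraries was 1.13, against 1.64 over the class, with 1 count added. That cluster gave 21 of 78 control but 120 of 298 Flcn iΔEC LEC-like cells. The part of this mixture in the class ratio was not tested.

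In the lower part of the pathway, Gapdh had 594 CPM in control against 800.0 CPM in Flcn iΔEC VEC-like cells, a ratio of 1.35 (1.25 to 1.46). LEC-like cells had 632 and 1000.3 CPM, a ratio of 1.58 (1.48 to 1.69), and proliferating endothelial cells 878 and 1325 CPM, a ratio of 1.51 (1.43 to 1.6). AEC-like cells, with 609 and 566 CPM, were on the other side of 1, at 0.930 (0.872 to 0.993), but the ratio was 1.05 (0.951 to 1.15) within the Cxcl12 and 1.10 (0.998 to 1.22) within the Gja5 cluster of that class. Within the LEC-like clusters the Gapdh ratio was 1.64 in the Lcn2, 1.501 in the Aqp8 and 1.39 in the Lyve1 cluster, so it was above 1 in each of them. Gapdh was the only member of 19 called in the Lcn2 cluster, where 8.43% of all genes were higher and 22.1% lower. Per cell, the median of Gapdh in LEC-like cells was 532 CPM in the control, with quartiles of 377 and 682, and 901 CPM in the Flcn iΔEC library, with quartiles of 668 and 1197. The cells of a library are not replicates. Gapdh shares 3′ sequence with many processed copies (86.5% of its end windows also lie in genes that the table does not count), so its level is uncertain.

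Enolase and phosphoglycerate mutase act on the next sugar acids of the path. In LEC-like cells Eno1 had 188 and 268 CPM, with a ratio of 1.43 (1.26 to 1.62), and 101 and 125 CPM in VEC-like cells, a ratio of 1.24 (1.02 to 1.51). In AEC-like cells Eno1 was lower in the Flcn iΔEC library, at 0.744 (0.634 to 0.873), with 0.685 (0.522 to 0.890) in the Cxcl12 and 0.891 (0.706 to 1.13) in the Gja5 cluster, and none of these passed 1.5-fold. Eno1 shares 66.9% of its 3′ end windows with Eno1b, and reads of the pair can be split between them. Pgam1 had 108 and 156 CPM in VEC-like cells, a ratio of 1.45 (1.21 to 1.75), and 183 and 194 CPM in LEC-like cells. Tpi1 (98.7 and 120 CPM) and Gpi1 (194 and 199 CPM) had overlapping intervals in VEC-like cells. Pkm, which encodes the pyruvate kinase of most tissues, had 243 CPM (control) and 214 CPM (Flcn iΔEC) in VEC-like cells. It had 172 and 196 CPM in LEC-like cells and 254 and 198 CPM in AEC-like cells. No ratio of Pkm in these classes passed 1.5-fold.

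**Figure D4:**
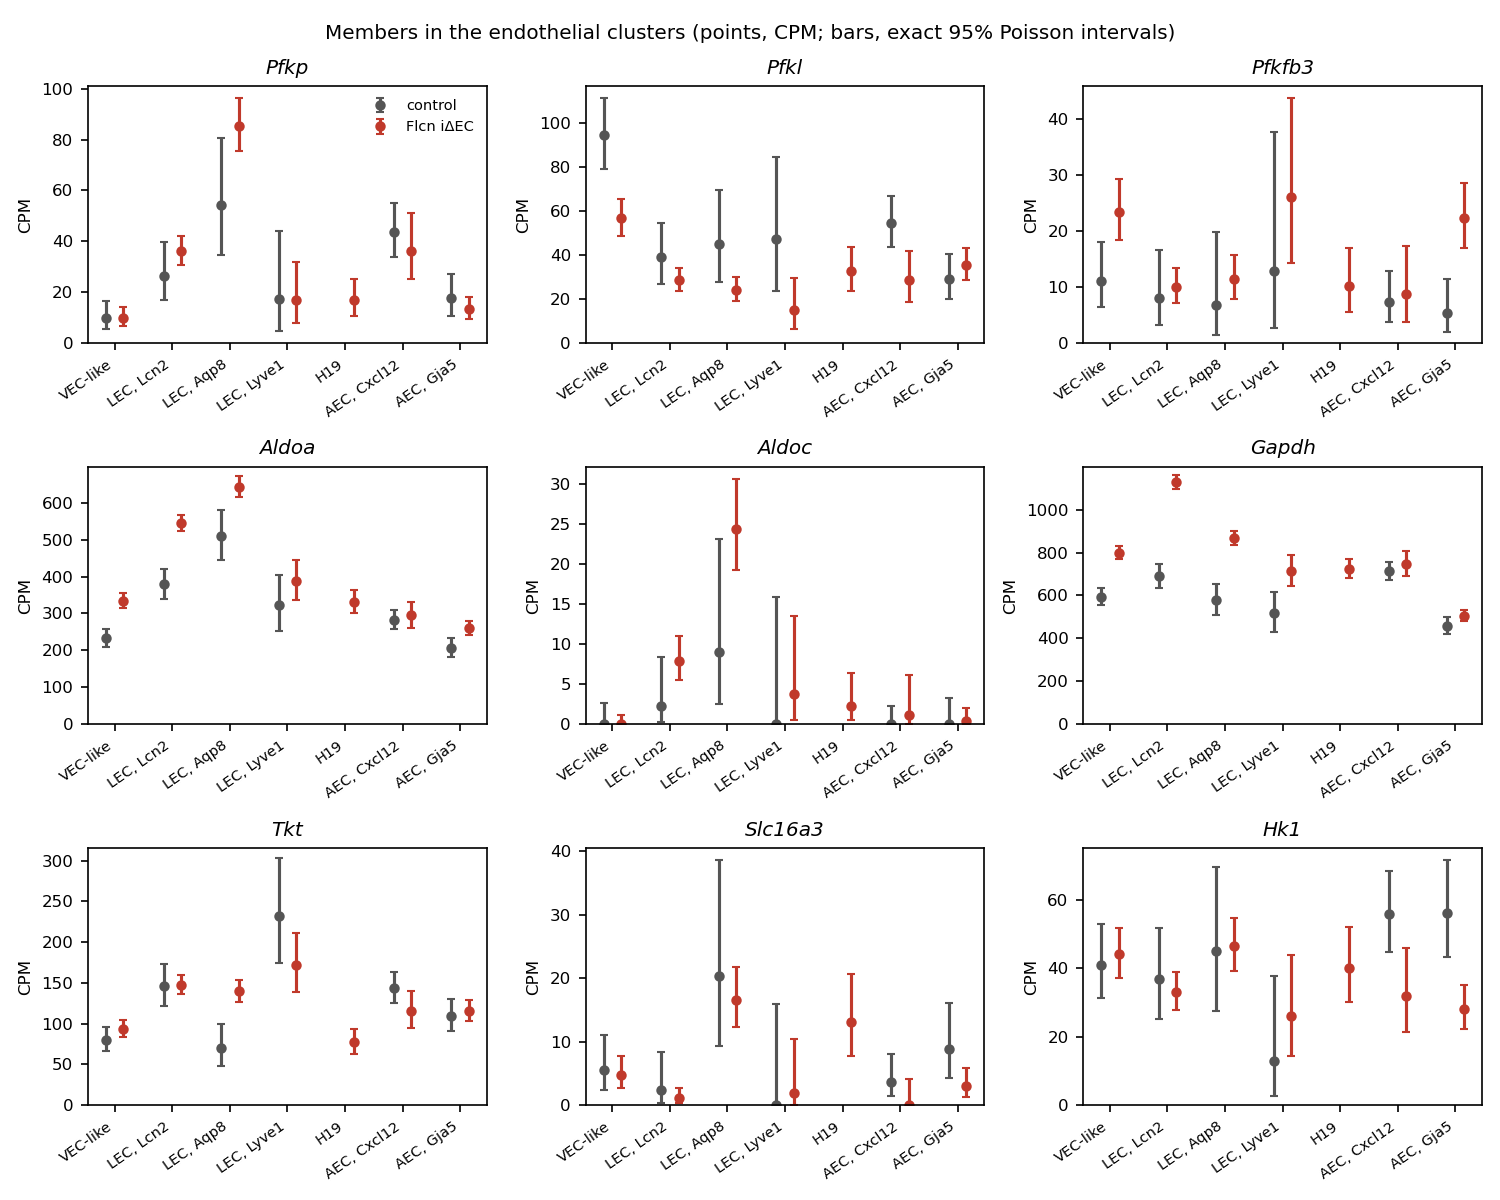
CPM of 9 members in the endothelial clusters, with exact 95% Poisson intervals as bars, control in grey and Flcn iΔEC in red. H19 marks a cluster that had Flcn iΔEC cells only. Pfkp, Aldoc and Slc16a3 peak in the Aqp8 cluster of the LEC-like class, Pfkl is highest in control VEC-like cells, and Pfkfb3 is higher in the Flcn iΔEC library in VEC-like cells and in the Gja5 cluster.

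Lactate dehydrogenase was made of Ldha, the muscle form, in nearly all UMIs of VEC-like and LEC-like cells. Ldha had 240 CPM in control against 273 CPM in Flcn iΔEC VEC-like cells, 244 and 213 CPM in LEC-like cells, and 308 and 270 CPM in AEC-like cells. None of these differences passed 1.5-fold. Within the LEC-like clusters Ldha went both ways, with 163 and 209 CPM in the Aqp8 cluster and 294 and 228 CPM in the Lcn2 cluster. In the Lyve1 cluster it was called lower in the Flcn iΔEC library, the only call among 10 members. There 9.66% of all genes were called higher and 15% lower. Ldhb, the heart form, took 3.09% and 2.34% of the UMIs of the pair in VEC-like and 0.265% and 0.412% in LEC-like cells, against 12.8% and 13.3% in HEV-like, 11.7% and 6.33% in sinus LEC-like and 29.1% and 36.4% in ILC3-like cells. The lactate transporter gene Slc16a1, which encodes MCT1, had 4.17 and 3.12 CPM in VEC-like cells and 7.11 and 7.07 CPM in LEC-like cells. It was called higher in the Flcn iΔEC library in proliferating endothelial cells, at 6.23 and 13.7 CPM, a ratio of 2.20 (1.13 to 4.61). Slc16a3, which encodes MCT4, the exporter of strongly glycolytic cells, had 20.3 CPM in control against 16.6 CPM in Flcn iΔEC cells of the Aqp8 cluster. In the Lcn2 cluster it had 2.30 and 1.16 CPM, and in the Flcn iΔEC library the Aqp8 cluster stood 14.3-fold (5.74 to 45.9) above it. Between these clusters of the Flcn iΔEC library, 22 members were compared and 3 were called higher in the Aqp8 cluster (Pfkp, Aldoc and Slc16a3), where 8.2% of all genes were called higher, and 0 lower, where 6.07% were. In the control library 14 were compared, with 1 higher in the Aqp8 cluster (Pdhb) and 3 lower (Ldha, Pdha1 and Tkt). There 12% of all genes were called higher and 11.4% lower, and Pfkp, Aldoc and Slc16a3 were under 50 UMIs.

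Pyruvate dehydrogenase passes pyruvate to the mitochondria, and the PDK kinases shut it off. Pdha1, its X-linked alpha subunit, had 64.6 CPM in control against 40.0 CPM in Flcn iΔEC VEC-like cells, a ratio of 0.618 (0.470 to 0.817), and 44.6 and 35.4 CPM in LEC-like cells, a ratio of 0.792 (0.607 to 1.05). With TMM factors the VEC-like value was no longer past 1.5-fold. Pdhb, the beta subunit, had 45.2 and 41.2 CPM in VEC-like and 45.9 and 45.3 CPM in LEC-like cells, which did not pass 1.5-fold. Pdk1 had 7.64 CPM (11 UMIs) in control against 14.4 CPM (46 UMIs) in Flcn iΔEC VEC-like cells, a ratio of 1.88, but its interval (0.959 to 4.02) reached below 1, and without endothelial cells that held a Ptprc UMI its log2 ratio of 0.58 no longer passed 1.5-fold. It was highest in T cell-like cells, at 64.0 and 64.4 CPM. Pdk2, Pdk3 and Pdk4 stayed under 50 UMIs in VEC-like cells. Pdk4 was called higher in HEV-like cells (8.52 and 13.4 CPM), with a ratio of 1.58 and an interval (0.980 to 2.60) that also reached below 1.

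The pentose phosphate branch makes NADPH and ribose. Taldo1 and Tkt, of its non-oxidative arm, had 151 and 170 CPM and 79.9 and 93.7 CPM in VEC-like cells, and no ratio of either passed 1.5-fold in VEC-like, LEC-like or AEC-like cells. Within the Aqp8 cluster, Tkt had 70.0 CPM in the control against 139 CPM in the Flcn iΔEC library, a ratio of 1.99 (1.38 to 2.97), while in the Lcn2 cluster it was level, at 1.01 (0.837 to 1.24). In the Aqp8 cluster 18 members were compared, with 3 higher (Pfkp, Aldoc and Tkt) and 2 lower (Pfkl and Pgd). Of all genes there, 10.5% were called higher and 24.2% lower. Of the oxidative arm, Pgd had 42.2 CPM in control against 24.97 CPM in Flcn iΔEC AEC-like cells, a ratio of 0.592 (0.445 to 0.785), with a call in AEC-like cells alone of these 3 classes. Its ratio was 0.537 (0.321 to 0.865) in the Cxcl12 and 0.708 (0.472 to 1.07) in the Gja5 cluster, where it did not pass 1.5-fold. G6pdx, the X-linked entry enzyme, stayed under 50 UMIs in each of the 3. Over all endothelial cells it had 9.31 and 5.66 CPM, a ratio of 0.608 (0.478 to 0.773). The make-up of these cells differed, with 13.8% LEC-like in the control against 33.4% in Flcn iΔEC, and 32.5% and 17.6% AEC-like. The part of this in the ratio was not tested.

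HEV-like and sinus LEC-like cells also held UMIs of blood cell genes, and their part in the levels of the members was not tested. Ptprc, the gene of the leukocyte antigen CD45, was found in 81.3% of HEV-like and 45.2% of sinus LEC-like cells, against 6.77% of VEC-like cells, at medians of 44315.5, 30255 and 17785.5 UMIs per cell. The 6 ILC3 markers summed to 1402 and 1103 CPM in HEV-like cells of the control and the Flcn iΔEC library, 1453 and 747 CPM in sinus LEC-like cells and 206 and 127 CPM in VEC-like cells, and none of them was at 0 in the HEV-like or sinus LEC-like cells. Hk2 had 51.8 CPM in control against 41.3 CPM in Flcn iΔEC HEV-like cells. In the 10 control and 15 Flcn iΔEC HEV-like cells without a Ptprc UMI, a choice made after seeing the data, Hk2 had 0 UMIs in the control, which allows up to 9.66 CPM, and 10.6 CPM in the Flcn iΔEC library. Slc2a3 went from 17.7 and 15.6 CPM to 0 UMIs and 5.31 CPM, and Ldhb from 46.1 and 43.7 CPM to 3.22 and 24.8 CPM. In sinus LEC-like cells Hk2 had 52.2 and 25.1 CPM over all cells, and 0 UMIs in the 7 control and 27 Flcn iΔEC cells without a Ptprc UMI, which allows up to 22.0 and 4.05 CPM. Hk2 was thus lower without the cells that held Ptprc in both classes and libraries, with no overlap of the intervals. For Slc2a3 and Ldhb the intervals were apart in control HEV-like cells alone and overlapped in the other 3 groups, and in control sinus LEC-like cells the limit of 22.0 CPM lay above the 9.88 CPM of Slc2a3 over all cells.

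Slc2a1 and Slc16a1 behaved otherwise in the same HEV-like cells. Without the cells that held Ptprc, Slc2a1 had 99.8 CPM in the control against 33.6 CPM in the Flcn iΔEC library, and Slc16a1 had 45.1 and 61.9 CPM. Both levels were at least as high as over all HEV-like cells, and Slc2a1 remained lower in the Flcn iΔEC library without overlap of the intervals (67.8 to 142 and 20.2 to 52.5). Against VEC-like cells, Slc2a1 was 8.25-fold (4.63 to 16.2) higher in control HEV-like cells and 6.44-fold (3.82 to 11.6) in Flcn iΔEC. Over that contrast 9 of 24 members were called higher in the control and 9 of 27 in the Flcn iΔEC library, where 17.3% and 17.8% of all genes were, and 2 and 0 were called lower, where 26.5% and 19.6% were. In sinus LEC-like cells 2 members were called higher in the Flcn iΔEC library (Aldoa and Slc16a1) and 4 lower (Hk2, Pfkl, Tpi1 and Ldhb), where 8.27% and 14.9% of all genes were. The order of Slc16a1 turned in the cells without a Ptprc UMI, with 21.2 and 43.5 CPM over all sinus LEC-like cells but 65.9 CPM (9 UMIs) in the control against 35.1 CPM (26 UMIs) in the Flcn iΔEC library without them.

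**Figure D5:**
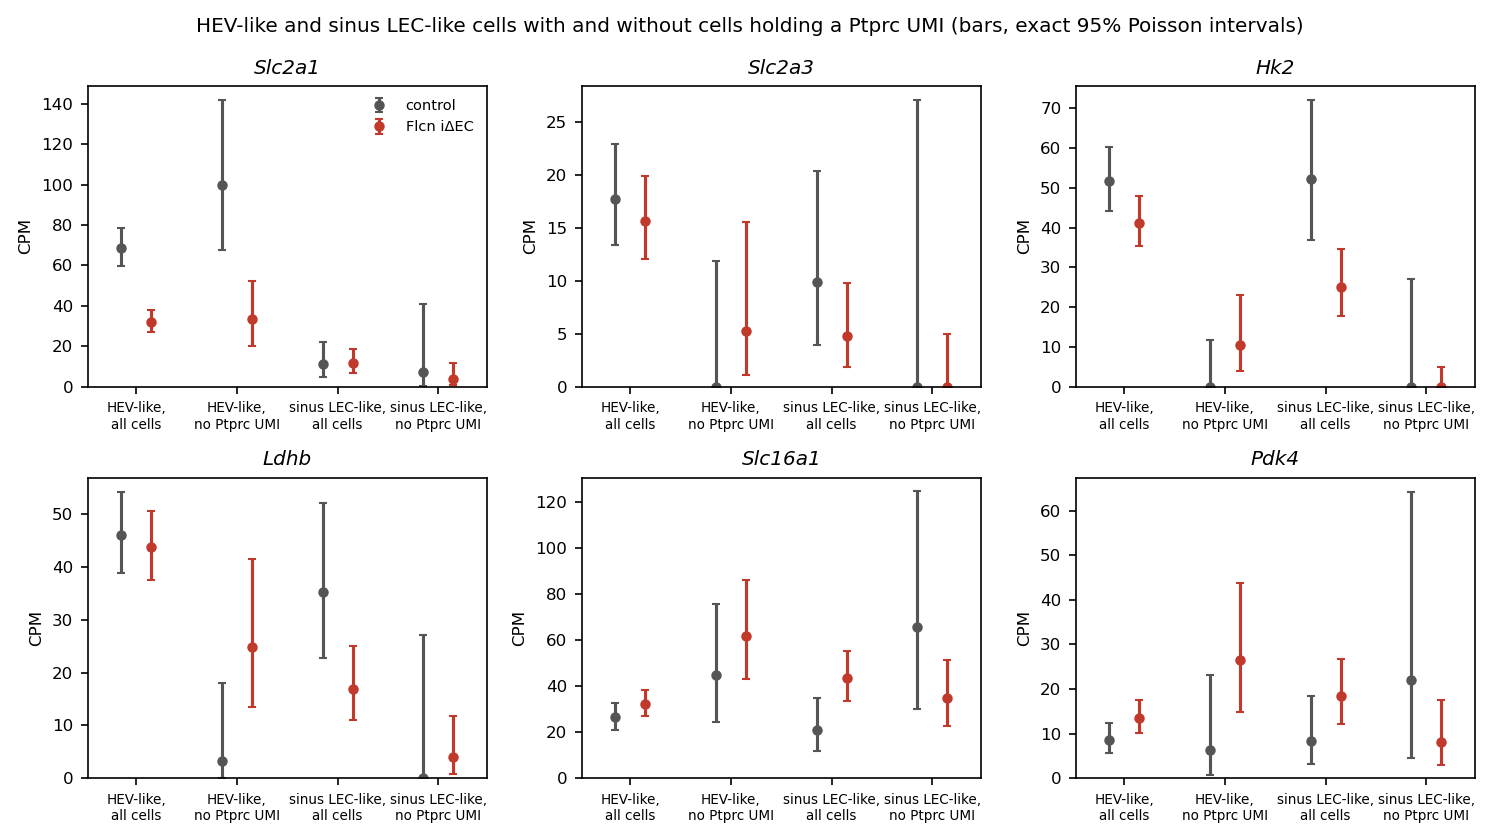
CPM of 6 members in HEV-like and sinus LEC-like cells, over all cells and over the cells without a Ptprc UMI, with exact 95% Poisson intervals, control in grey and Flcn iΔEC in red. Without the cells that hold Ptprc, Hk2 is at 0 in 3 of the 4 groups, whereas Slc2a1 in HEV-like cells stays at 99.8 and 33.6 CPM.

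A cluster of 45 cells, all from the Flcn iΔEC library, expressed Prox1 at 494 CPM together with H19 and hemoglobin genes, and it stayed unnamed. With no control cell in it, a cell state and a trait of the library cannot be told apart. Its enzymes summed to 2217 CPM, near the 2358 CPM of the VEC-like and under the 2960.1 CPM of the LEC-like cells of that library. Pfkp, at 16.7 CPM, lay between the 9.99 CPM of the VEC-like and the 53.9 CPM of the LEC-like cells. Its ratio to LEC-like cells was 0.310 (0.194 to 0.471), and that to VEC-like cells was 1.67 (0.934 to 2.95). Aldoc, with 2.18 CPM, and Tkt, with 77.0 CPM, were also under the LEC-like levels of 14.0 and 146 CPM, whereas Slc16a3, at 13.1 CPM, stood above the 7.20 CPM of LEC-like cells. Against LEC-like cells 1 of 24 members was called higher and 7 lower, where 12.8% and 10.7% of all genes were. Against VEC-like cells 2 of 18 were called higher and 4 lower, where 9.67% and 12.6% were.

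The cluster of S100a9 and C1qb stayed unnamed, since genes of neutrophils lead it beside those of macrophages. There 7 of 12 members were called higher in the Flcn iΔEC library and 0 lower, where 17.9% and 11.9% of all genes were, 29.7% either way. Tpi1 had 64.3 CPM in the control against 189.8 CPM in the Flcn iΔEC library, a ratio of 2.95 (1.92 to 4.61), Eno1 a ratio of 2.40 (1.81 to 3.19) and Pgam1 a ratio of 2.23 (1.67 to 2.98). The other 4 were Gapdh, Pkm, Ldha and Pgd, at 1.52 to 1.73. This cluster was small and shallow, with 89 control and 47 Flcn iΔEC cells at medians of 2076 and 2226 UMIs, and its marker levels differed too. The 11 macrophage and DC markers summed to 4264 and 15785 CPM and the 6 neutrophil markers to 13824 and 25026 CPM, and their part in the result was not tested. In NK and gamma-delta T-like cells 0 of 22 members were called, where 4.58% of all genes were higher and 6.68% lower. In proliferating non-endothelial cells 0 of 26 were higher and 4 lower (Pfkl, Aldoa, Ldhb and Pdk3), where 5.88% and 6.09% were. In fibroblast-like cells 0 of 11 were higher and 2 lower, where 6.36% and 10.7% were, with Tpi1 at 255 CPM in the control and 165 CPM in Flcn iΔEC cells and Ldha at 252 and 163 CPM.

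Of 53 further genes of glycolysis and pyruvate use, 21 could be compared in VEC-like cells, and 2 were higher in the Flcn iΔEC library and 2 lower, where 8.68% and 14.5% of all genes were. Rpe, an enzyme of the pentose phosphate branch, had 9.03 and 21.2 CPM and Gpd2, of the glycerol phosphate shuttle, 22.9 and 39.3 CPM, while Pck2 (28.5 and 15.9 CPM) and Pygb, a glycogen phosphorylase (29.2 and 18.4 CPM), were lower. In LEC-like cells 24 could be compared, with 1 higher and 6 lower, beside 7.8% and 21.8% of all genes. A list of 24 other genes of the hypoxia response also held its own factors and regulators, such as Hif1a, Epas1, Arnt and Vhl. Of the list, 17 were compared in VEC-like cells, with 1 higher (Mif, 102 and 256 CPM) and 2 lower. In LEC-like cells 19 were compared, with 4 higher and 5 lower, beside the same shares of all genes in each class. These went both ways in LEC-like cells, where Ndrg1 had 188 and 552 CPM and Hif1a 54.97 and 103 CPM, but Adm, which encodes adrenomedullin, 126 and 4.29 CPM. Of 19 genes around TFEB, TFE3, MYC and PGC-1, 15 were compared in LEC-like cells, with 5 higher and 5 lower, again beside 7.8% and 21.8%. The higher ones were Gpnmb (1.29 and 137 CPM), Rragd (3.23 and 43.7 CPM), Ppargc1a (16.8 and 133 CPM), Fnip1 (14.2 and 37.0 CPM) and Rragc (67.9 and 166 CPM). The lower ones were Tfeb (77.0 and 34.1 CPM), Foxo1 (169 and 107 CPM), Esrra (23.9 and 13.004 CPM), Mlxip (14.2 and 7.07 CPM) and Flcn itself, with the values given above and a ratio of 0.617 (0.389 to 1.01). Fnip1, Fnip2 and Rragc were the 3 called higher of the 9 compared in VEC-like cells, and Tfeb and Klf2 were lower.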

How the data were processed

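Cells of the P8 mesentery that bound CD31 beads were loaded as 1 droplet library per genotype, from 3 pooled mice each. The authors aligned and counted the reads with Cell Ranger 3.0 against mm10, per the submitters' processing notes, and deposited the counts as filtered UMI matrices. These were used as counts, with no cell removed (Scrublet in scanpy 1.11.5 called 142 control and 37 Flcn iΔEC doublets). Cells with at least 2 Cdh5 UMIs and all others were integrated and clustered separately in Seurat 5.3.0 (2000 variable features, 30 dimensions, resolution 0.8), with 131 genes, the members among them, kept out. Clustering gave 14 endothelial and 19 other clusters, and names came from marker lists. Of the endothelial clusters 10 were named. Outside them, clusters with 1102 control and 838 Flcn iΔEC cells got no name. Besides these, 1 whose leading genes were of neutrophils and macrophages was left unnamed after seeing the data. UMIs were summed per class and scaled to CPM, with exact Poisson, conditional binomial and Clopper-Pearson 95% intervals (scipy 1.17.1). A limit for 0 counts is the CPM of 3 counts. Members with at least 50 UMIs over both libraries were compared and called past 1.5-fold, after 1 count was added. Members called in a class and those that differed between classes or paralogs were named.

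With 1 library per genotype no replicate spread was measured and no p-value was computed. The members and gene lists were chosen with earlier results of these data known. Alternatives covered cell filters, doublets, the Cdh5 gate, Ptprc, integration, resolution, scaling (edgeR 4.0.16 TMM factors, median ratio), means over cells and the UMI minimum. Levels in cells without Ptprc in HEV-like and sinus LEC-like cells were added after seeing the data. The calculations were checked on simulated counts. Promoter windows came from RefSeq on GRCm38.p6, and Slc2a3 had no entry.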

Additional observations from a re-analysis of the deposited data

Results flagged for a closer look

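Members whose Flcn iΔEC over control ratio was called in opposite directions in different classes are listed here, each with its 95% counting interval. With 1 library per genotype, none of these differences between classes was tested.

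Hk2 had a ratio of 1.767 (1.32 to 2.36) in T cell-like cells and 0.4812 (0.297 to 0.780) in sinus LEC-like cells, where it was at 0 UMIs in cells without Ptprc. Pfkp was higher in the Flcn iΔEC library in LEC-like cells, at 1.635 (1.22 to 2.23), and in proliferating endothelial cells, at 1.719 (1.17 to 2.57), but lower in AEC-like cells, at 0.5768 (0.416 to 0.797), where neither cluster of the class passed 1.5-fold. Aldoa was higher in sinus LEC-like cells, at 1.595 (1.32 to 1.93), and proliferating endothelial cells, at 1.879 (1.64 to 2.15), and lower in proliferating non-endothelial cells, at 0.5703 (0.501 to 0.648). Tpi1 was higher in the S100a9 and C1qb cluster, at 2.954 (1.92 to 4.61), and lower in sinus LEC-like cells, at 0.6313 (0.489 to 0.818), and fibroblast-like cells, at 0.6484 (0.473 to 0.885). Ldha had 1.699 (1.34 to 2.16) in the S100a9 and C1qb cluster against 0.6461 (0.471 to 0.883) in fibroblast-like cells. Pgd had 1.522 (1.02 to 2.26) in the S100a9 and C1qb cluster against 0.5917 (0.445 to 0.785) in AEC-like and 0.6228 (0.439 to 0.882) in proliferating endothelial cells.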

How the results depend on the processing

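Over 13 alternative settings, the median log2 ratio of the members ranged from −0.15 to 0.31 in VEC-like, −0.08 to 0.30 in LEC-like, −0.36 to 0.05 in AEC-like and −0.23 to 0.07 in capillary-like cells. It left the main value in VEC-like cells with no UMI minimum (−0.15 over 33 members) and in AEC-like cells at resolution 0.4 (0.0466). The Gja5 cluster of the main clustering had the same median (0.0466), with 2 members called. The AEC-like class at resolution 0.4 thus need not hold the same cells as the main one. The number of members called, 4 in VEC-like, 4 in LEC-like, 5 in AEC-like and 1 in capillary-like cells, became 9, 9, 16 and 10 with no minimum, where most members added have few UMIs. With a minimum of 20 UMIs it was 7 in LEC-like, 9 in AEC-like and 2 in capillary-like cells. TMM factors gave 7 in LEC-like cells. Resolution 0.4 gave 2 in AEC-like and 2 in capillary-like cells, resolution 1.6 and no integration each gave 3 in capillary-like cells, and leaving mitochondrial, hemoglobin and ribosomal protein genes out of the CPM gave 0 there. Gapdh in capillary-like cells, called higher, had a log2 ratio of −0.25 without integration and −0.0091 at resolution 1.6. The cause was not tested. Of 263 values of single genes under these settings, 252 stayed within their counting interval, 9 moved and the 2 just given changed sign. Without integration VEC-like cells had too few control cells for a value.

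The scaling moved the median log2 ratio of all genes by 0.13 in VEC-like, 0.24 in LEC-like and 0.14 in AEC-like cells with TMM factors, and by 0.18 in LEC-like and 0.13 in AEC-like cells with the median ratio. Leaving out those genes gave 4 higher and 2 lower in VEC-like cells, against 2 and 2. Pfkl in LEC-like cells had a log2 ratio of −0.47 with TMM factors and −0.53 with the median ratio. No paired analysis was possible because each genotype was 1 library. Near 50 UMIs the counting interval of a ratio past 1.5-fold could still reach below 1, as for Pdk1 in VEC-like cells (0.959 to 4.02), and differences between mice were not measured.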

Other observations

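Cells outside the named classes had glycolytic profiles of their own. A cluster led by Fabp1, Fabp2 and Apoa4, genes of fat absorption in the gut, held 37 control and 68 Flcn iΔEC cells and stayed unnamed. Of 24 members compared, 4 were called higher in the Flcn iΔEC library and 4 lower, where 11.6% and 18.6% of all genes were. Tkt had 395 CPM in the control and 598 CPM in the Flcn iΔEC library, a ratio of 1.51 (1.40 to 1.64), and Pdk4 11.2 and 26.4 CPM, a ratio of 2.36 (1.48 to 3.91). Hk1 and Hk2 were both under 5 CPM. Among the further genes of sugar use, Fbp1, which encodes fructose-1,6-bisphosphatase, had 302 and 95.2 CPM, and Pck1, of gluconeogenesis, 331 and 53.1 CPM. In the same cells 12 of 14 cell cycle genes were called higher and 0 lower, and their part in these values was not tested.

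A cluster led by Clps and Cpa1, genes of the exocrine pancreas, held 44 control but only 5 Flcn iΔEC cells. It had more Aldoc than any endothelial class, with 289 CPM in the control and 179 CPM in the Flcn iΔEC library, where Aldoc made up 58.2% and 47.6% of the Aldoa and Aldoc UMIs.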
